A study of Homo sapiens with 8 samples.

Results

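DOV-13 is an established human ovarian cancer cell line, and this account describes how its transcripts differed between an array of cells given pI:pC and an array of untreated cells. Those 2 arrays were chosen by their cell line label, out of 8 arrays in the study. The remaining 6 arrays are the same 2 conditions in the ovarian cancer lines SKOV-3, CAOV-3 and OVCAR-3, and serve here as a reference for spread. Treated cells received pI:pC (polyriboinosinic:polyribocytidylic acid) in their medium, and untreated cells are the controls. All cells grew in the same medium with fetal bovine serum. No gene was deleted or introduced in any group, so far as the labels say. The labels name several concentrations of pI:pC without saying which array had which, and give no exposure time. Each group is a single array, so nothing is known of the spread between cultures of DOV-13. Values are log2 expression levels, and a difference is treated minus untreated on that scale.

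pI:pC imitates the double-stranded RNA of a replicating virus. Cells sense such RNA with TLR3 in endosomes and with RIG-I (RIGI) and MDA5 (IFIH1) in the cytosol. The sensors pass the signal along separate branches. In the first, IRF3 and IRF7 switch on interferon genes, and secreted interferon then drives a large set of antiviral genes through its receptors. In the second, NF-kB is released from its inhibitor IkB-alpha (NFKBIA) and switches on chemokines, cytokines and its own inhibitors. Epithelial cancer cells differ in which of these branches they can use.

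The treated and untreated DOV-13 arrays were close to each other, and few genes differed by much. The leading higher genes were SLIT2 and the neutrophil-attracting chemokines CXCL8 and CXCL1, and the leading lower gene was ID2. The pair correlated at r = 0.9972 across 11963 genes, against 0.9911 to 0.9967 in the other 3 lines (genes are not independent replicates). The SD of the difference over all genes was 0.159 in DOV-13, against 0.175 in SKOV-3, 0.204 in OVCAR-3 and 0.287 in CAOV-3. The median difference was 0.034, and 60.3% of genes were higher in the treated array.

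A gene was counted at a difference of 1.5-fold or more (0.585 in log2 units), provided that the brighter of its values was no lower than that of the pair's median gene, 6.72. By this rule 21 genes were higher in treated DOV-13 cells, 0.176% of the 11963 measured, and 11 were lower, 0.092%. At 2-fold the counts were 2 higher (0.0167%) and 1 lower (0.00836%). The same rule at 1.5-fold counted 6 higher (0.0502%) and 19 lower (0.159%) genes in SKOV-3, 50 (0.418%) and 12 (0.1%) in OVCAR-3, and 207 (1.73%) and 115 (0.961%) in CAOV-3. Of the counted DOV-13 genes 65.6% were higher. That share depends on scaling: it was 53.1% (17 higher, 15 lower) with each array centred on its median and 51.6% (16 and 15) after quantile normalization was applied again. TAF1A at 0.587 lay just inside the limit and CD55 at 0.567 just outside it, and on the lower side TPMT lay inside at -0.585 and SPP1 outside at -0.581.

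**Figure D1:**
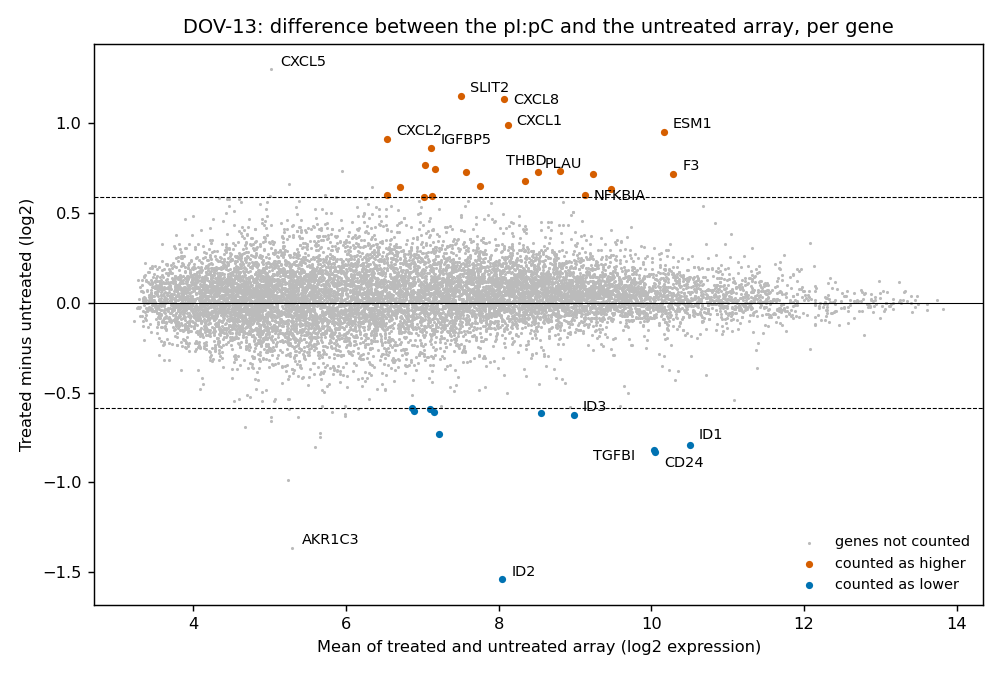
Difference between the pI:pC and the untreated DOV-13 array (y axis, log2) against the mean of both arrays (x axis, log2 expression), with 1 point per gene. Orange points are the 21 genes counted as higher, blue points the 11 counted as lower, and dashed lines mark 1.5-fold. CXCL5 and AKR1C3 differ by more than most counted genes but lie below the level limit.

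No gene passed a test against the spread between lines. limma was fitted to the 4 within-line differences, where the spread comes from the other 3 lines and the lone DOV-13 difference is assumed to vary like theirs. That spread includes how those lines differ in response, so a gene whose response varied among them could hardly pass. At an adjusted p of 0.05, 0 genes (0%) differed from zero in DOV-13 and 0 (0%) differed between DOV-13 and the mean of the other lines. The smallest limma adjusted p was 0.5339, for CXCL5 against zero, and 1.0 for every gene against the other lines. At an unadjusted p under 0.05 there were 286 and 278 genes, where 598 would arise by chance. With a trended, robust variance CXCL5 was the only gene to pass against zero (adjusted p = 0.009894), and 0 passed against the other lines (smallest adjusted p 0.08855). The differences below are therefore given as measured sizes in this pair of arrays.

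Chemokines that recruit neutrophils were among the largest differences on the higher side. CXCL8 (interleukin-8) read 8.64 in the treated and 7.50 in the untreated array, a difference of 1.13. CXCL1, a ligand of the same receptor CXCR2, read 8.61 and 7.62, a difference of 0.99. CXCL2, its close relative, read 6.998 and 6.087, a difference of 0.91. All 3 were counted, and they were the only counted members of the cytokine and chemokine list.

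Other members of that chemokine family were dimmer, were picked after their values were seen, and lay below the level limit. CXCL5 read 5.67 against 4.37, a difference of 1.30 and the largest positive difference of any gene, but its other probe sets gave 0.34 and 0.11. CXCL3 read 4.62 against 4.17 (0.46) and CXCL6 4.43 against 4.02 (0.41). All 6 were thus higher in treated DOV-13 cells, over a range of 0.41 to 1.30. A second probe set of CXCL8 gave 0.98. The probe sets used for CXCL2, CXCL5 and CXCL8 are of the class whose names end in x_at, which marks probes that can also bind other transcripts, so near-identical family members may share part of this signal.

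The 3 counted chemokines are shown with their promoters because they and NFKBIA, also counted, carry the same stretch just before the start of transcription. Each window runs from 250 bases before to 50 bases after the start, on GRCh38.p14 from RefSeq, read 5′ to 3′ on the strand of the gene. The windows are chr4:73869143-73869442 (plus strand) for CXCL1, chr4:74099146-74099445 (minus strand) for CXCL2, chr4:73740319-73740618 (plus strand) for CXCL8 and chr14:35404700-35404999 (minus strand) for NFKBIA. IFIT1, an interferon-stimulated gene at chr10:89392373-89392672 (plus strand), is set beside them for contrast. Capitals mark GGAANTTCC, a form of the kappaB stretch that NF-kB binds, in the first 4, and in IFIT1 the reverse complement of GAAA, any 2 bases and GAAA, the core of the interferon-stimulated response element (ISRE).
CXCL1: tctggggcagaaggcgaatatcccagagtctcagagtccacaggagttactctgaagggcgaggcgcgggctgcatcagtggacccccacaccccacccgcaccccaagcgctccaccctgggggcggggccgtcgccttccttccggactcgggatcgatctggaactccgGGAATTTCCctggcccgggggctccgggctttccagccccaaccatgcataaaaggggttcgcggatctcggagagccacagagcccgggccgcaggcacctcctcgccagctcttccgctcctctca
CXCL2: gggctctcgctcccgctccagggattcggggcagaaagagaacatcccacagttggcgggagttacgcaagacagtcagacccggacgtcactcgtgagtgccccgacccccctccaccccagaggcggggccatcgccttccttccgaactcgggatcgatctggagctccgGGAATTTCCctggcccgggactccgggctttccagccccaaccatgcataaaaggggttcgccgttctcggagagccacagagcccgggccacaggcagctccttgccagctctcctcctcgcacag
CXCL8: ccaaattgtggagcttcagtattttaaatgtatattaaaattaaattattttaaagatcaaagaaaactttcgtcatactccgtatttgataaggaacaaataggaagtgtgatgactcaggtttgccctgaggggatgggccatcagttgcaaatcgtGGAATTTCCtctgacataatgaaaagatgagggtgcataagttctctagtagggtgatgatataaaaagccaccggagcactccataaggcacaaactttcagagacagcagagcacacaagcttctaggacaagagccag
NFKBIA: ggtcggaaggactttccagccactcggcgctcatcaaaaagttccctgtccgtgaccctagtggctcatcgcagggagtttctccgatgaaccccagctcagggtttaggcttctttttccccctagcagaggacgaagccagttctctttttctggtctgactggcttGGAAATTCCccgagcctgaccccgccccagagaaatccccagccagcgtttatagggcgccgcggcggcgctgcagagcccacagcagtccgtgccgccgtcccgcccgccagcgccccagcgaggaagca
IFIT1: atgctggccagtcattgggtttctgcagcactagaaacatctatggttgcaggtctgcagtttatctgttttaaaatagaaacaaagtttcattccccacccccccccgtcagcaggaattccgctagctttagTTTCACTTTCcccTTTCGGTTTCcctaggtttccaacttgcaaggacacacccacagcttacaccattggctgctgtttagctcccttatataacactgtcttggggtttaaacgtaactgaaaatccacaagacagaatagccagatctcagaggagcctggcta
The stretch starts at -78 in CXCL1, -77 in CXCL2, -91 in CXCL8 and -81 in NFKBIA, counted from the start site, and the letters are GGAATTTCC in the chemokines and GGAAATTCC in NFKBIA. In IFIT1 the elements start at -116 and -103.

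Both strands of 35116 promoter windows were searched. GGAANTTCC, which reads the same on both strands, was in 0.965% of windows and the ISRE core in 3.57%; 19 windows held both, and in 2 of these they overlapped. Counted by gene, GGAANTTCC was in 1.47% and the ISRE core in 4.13% of measured genes that matched a promoter by symbol. Of the 21 higher genes 18 matched, and 4 of those (22.2%) held GGAANTTCC: CXCL1, CXCL2, CXCL8 and NFKBIA. Of the 11 lower genes 10 matched and 0 held it, which is near the share over measured genes. All 6 of CXCL1, CXCL2, CXCL3, CXCL5, CXCL6 and CXCL8 held it, a set put together after the values were seen. The ISRE core was in 1 higher gene (DMD, 5.56% of those matched) and 1 lower gene (NPR3, 10%). In sets this small, 1 gene is no departure from the share over measured genes. It was in 30 of the 45 matched interferon-stimulated genes (66.7%). These are matches of letters and not measured binding sites.

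Across the cell lines the chemokine differences were uneven. The difference for CXCL8 was -0.03 in SKOV-3, 1.28 in OVCAR-3 and 3.45 in CAOV-3, beside 1.13 in DOV-13. For CXCL1 it was -0.02, 0.57 and 1.95 in the same order, beside 0.99. For CXCL2 it was 0.19, 1.23 and 1.21, beside 0.91. DOV-13 thus lay above SKOV-3 and below CAOV-3 for all 3 genes. CXCL5 had 0.09, 0.17 and 0.04 in those lines, so the 1.30 of DOV-13 was the largest of the 4. The DOV-13 difference exceeded the mean of the other lines by 1.20 ± 0.15 for CXCL5 (limma standard error, adjusted p = 1.0).

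No cytokine outside this family was counted. The whole cytokine and chemokine list, with this family in it, had 36 measured members, 25 higher and 11 lower at any size. Its median difference was 0.134, against 0.034 over all genes. The 3 counted members were CXCL1, CXCL2 and CXCL8, beside 0.176% of all genes counted as higher. Only 7 members reached the level limit, these 3 among them, and their median was 0.468, the value of IL32. CXCL2 and IL32 reached it in the treated array only, so the limit favours higher members here. The others at that level were IL15 (-0.17), LIF (-0.04), CSF1 (0.04) and IL32. IL1B, the precursor of interleukin-1 beta, read 6.66 against 6.02 (0.64, below the level limit and chosen after its value was seen). IL32, an inflammatory cytokine, read 6.996 against 6.528 (0.47). IL6 read 6.39 against 6.26, CCL5 4.96 against 4.83, and CCL20 4.25 against 4.21. CXCL10 and CXCL11, the chemokines that interferon induces, read 5.23 against 5.26 and 3.62 against 3.61.

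Among NF-kB genes the feedback inhibitor NFKBIA and the target PLAU were counted as higher, and the rest differed less. Of 30 measured subunits, targets and inhibitors, 2 were counted as higher, beside 0.176% of all genes. At any size 23 were higher and 7 lower, beside 60.3% higher over all genes. The median was 0.104, beside 0.034 over all genes, and with each array centred it was 0.06 (20 higher, 10 lower). NFKBIA, which NF-kB itself induces, read 9.42 in the treated and 8.82 in the untreated array (0.60). PLAU, the urokinase protease and a known NF-kB target, read 9.59 and 8.88 (0.72). Below the limit lay C3, the central complement component (6.79 and 6.27, 0.52), the inhibitor NFKBIE (7.20 and 6.75, 0.45) and TNFAIP3, the A20 feedback inhibitor (9.68 and 9.27, 0.41). The subunits themselves had differences of 0.17 for RELA, 0.21 for NFKB1, 0.24 for NFKB2, 0.35 for RELB and 0.37 for REL. For ICAM1, an adhesion molecule and classical target, the probe sets disagreed. The one used read 7.32 and 7.46 (-0.14), a second at the level limit read 6.902 and 5.664 (1.24), and another, dimmer one gave 0.29, so no direction is given for the gene. In CAOV-3 the list had a median of 0.657 against 0.104 here. In SKOV-3 the list median was 0.092 and in OVCAR-3 0.103, close to the value in DOV-13.

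**Figure D2:**
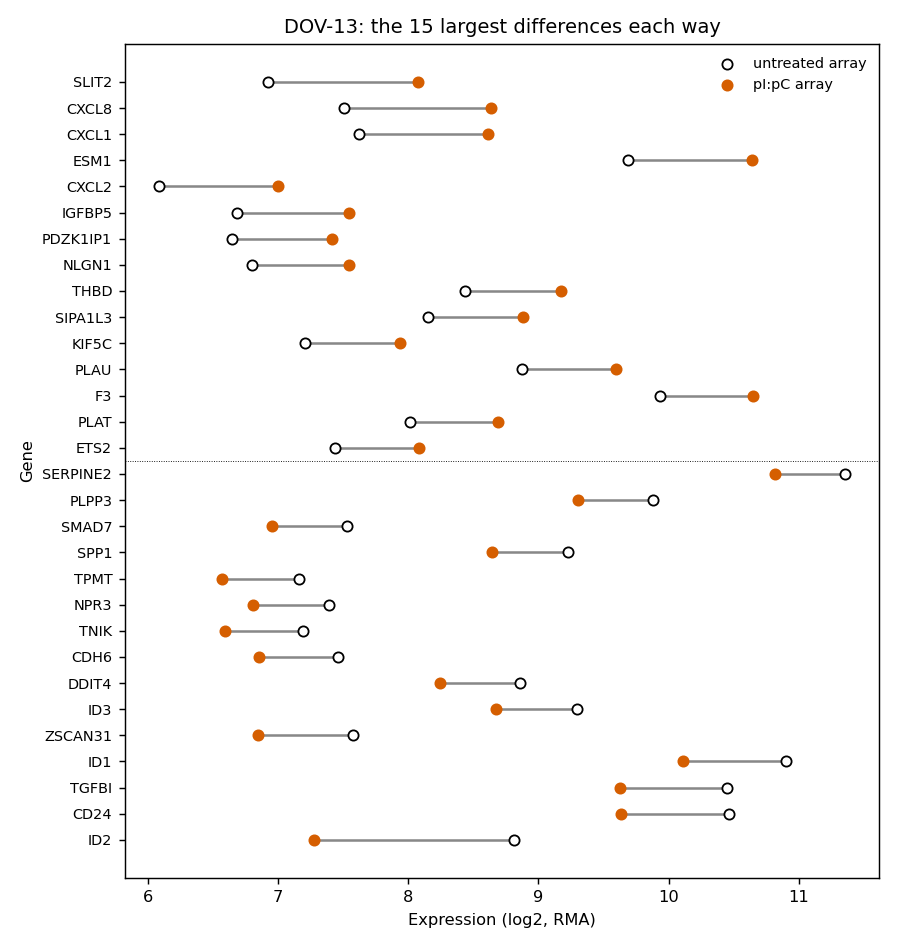
Expression (x axis, log2) in the untreated (open circles) and pI:pC (filled circles) DOV-13 arrays for the 15 largest differences each way among genes that reach the level limit, each gene on its own line. SLIT2 and CXCL8 lead the higher genes and ID2 the lower ones; each circle is a single array.

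A further set of higher genes acts at vessel walls and in clotting and fibrinolysis. ESM1 (endocan), a secreted proteoglycan, read 10.64 in the treated and 9.69 in the untreated array (0.95). THBD (thrombomodulin), the cell-surface cofactor of thrombin, read 9.17 and 8.44 (0.73). F3 (tissue factor), which starts clotting, read 10.65 and 9.93 (0.72), and PLAT (tissue plasminogen activator), a protease that works beside PLAU, read 8.69 and 8.01 (0.67). This grouping was made after the values were seen and is not one of the fixed lists. ESM1, THBD and PLAT were under 1.5-fold in all 3 other lines, as were 95.8% of all genes. F3 had 0.81 and PLAU 1.07 in CAOV-3. The ESM1 probe set read only 3.86 to 4.44 on the 6 arrays of the other 3 lines.

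Endothelial markers were checked beside these genes, since several of them are abundant in endothelium. Of 11 measured endothelial markers 9 were higher at any size, with a median of 0.131 (0.065 with the mean of all probe sets), and only ENG reached the level limit (difference -0.12). VE-cadherin (CDH5) read 6.02 against 5.43 (0.60) and PECAM1 5.58 against 5.34 (0.24). Their part in the result was not tested. In bulk RNA, a change in the number of cells of a type and a change of RNA per cell cannot be told apart.

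SLIT2 and IGFBP5 were the other leading higher genes. SLIT2, a secreted guidance protein that binds ROBO receptors, read 8.08 in the treated and 6.92 in the untreated array. Its difference of 1.15 was the largest among genes counted as higher. It had 0.14 in SKOV-3, -0.19 in CAOV-3 and -0.28 in OVCAR-3, and exceeded their mean by 1.26 ± 0.20 (limma standard error, adjusted p = 1.0). IGFBP5, which binds insulin-like growth factors, read 7.55 and 6.68 (0.86), and in CAOV-3 the difference had the other sign (-2.08). The transcription factor ETS2 read 8.08 and 7.43 (0.65), again with the other sign in CAOV-3 (-0.68). The small MAF protein MAFF, an immediate early gene, read 9.79 and 9.16 (0.63).

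The remaining higher genes were PDZK1IP1 (0.76), the synaptic adhesion gene NLGN1 (0.74), SIPA1L3 (0.73), the kinesin KIF5C (0.73), the dystrophin gene DMD (0.64), the connexin GJC1 (0.60), the kinetochore gene CENPQ (0.59) and TAF1A (0.59), a subunit of the factor that starts ribosomal RNA transcription. NLGN1 had -1.05 in CAOV-3. Of the 21 higher genes 15 are in none of the 32 lists.

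**Figure D3:**
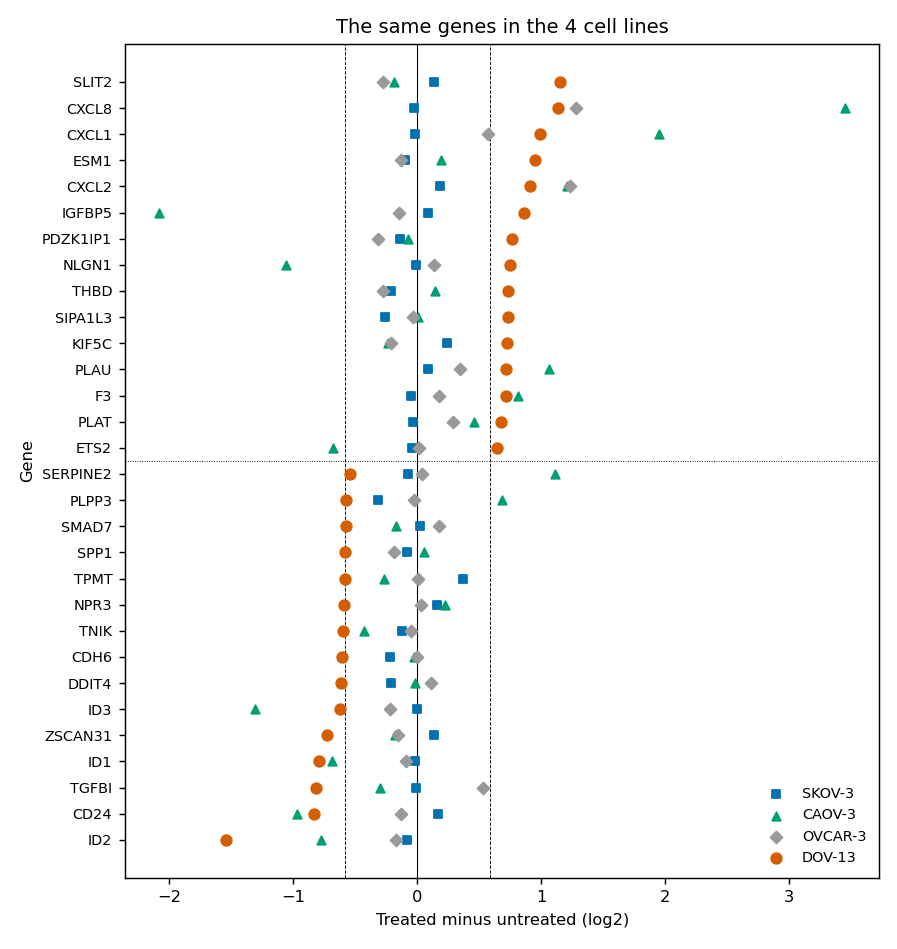
Treated minus untreated difference (x axis, log2) of the same 30 genes in the 4 cell lines, with dashed lines at 1.5-fold. The chemokines, PLAU and F3 also lie to the right in CAOV-3, whereas SLIT2, ESM1 and THBD lie near zero in the other lines, and ID1, ID2, ID3 and CD24 lie to the left in CAOV-3 too.

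On the lower side, the ID genes stood out. They encode short helix-loop-helix proteins without a DNA-binding region, which block differentiation factors, and BMP signals through SMAD proteins keep them on. ID2 read 7.28 in the treated and 8.81 in the untreated array, a difference of -1.54 and the largest of any gene in either direction. A second probe set of ID2 gave -1.51. ID1 read 10.11 and 10.90 (-0.79), and ID3 read 8.67 and 9.30 (-0.62). The other family member, ID4, had a difference of 0.10 below the level limit.

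Other genes of the BMP pathway differed less. SMAD7, an inhibitory SMAD that the pathway induces, read 6.95 against 7.53 (-0.58), just outside the 1.5-fold limit. The ligand BMP4 read 7.12 against 7.60 (-0.47) and the inhibitory SMAD6 6.02 against 6.33 (-0.31). BMP2, another ligand, was not lower (5.08 against 4.74, 0.34, below the level limit). Of 15 measured list members 10 were lower and 5 higher, 3 were counted as lower (0.092% over all genes), and the median was -0.176. With the mean of all probe sets of a gene the median was -0.066 (9 lower, 6 higher), and over the 6 members that reached the level limit it was -0.599. The same list had a median of 0.019 in SKOV-3, -0.126 in OVCAR-3 and -0.284 in CAOV-3.

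ID2 differed by -0.08 in SKOV-3, -0.17 in OVCAR-3 and -0.78 in CAOV-3. Its difference in DOV-13 was below the mean of those lines by -1.19 ± 0.29 (limma standard error, adjusted p = 1.0). ID1 had -0.02, -0.09 and -0.68 in the same order, and ID3 -0.003, -0.22 and -1.30. ID1 and ID2 were thus lowest in DOV-13, and ID3 in CAOV-3.

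CD24, a glycosylated surface protein common on ovarian carcinoma cells, read 9.63 in the treated and 10.46 in the untreated array (-0.83). It is measured by several probe sets, which ranged from -0.91 to -0.70. TGFBI, a matrix protein that TGF-beta induces, read 9.63 and 10.45 (-0.82), but the TGF-beta and matrix list as a whole had a median of 0.03 with 21 of 36 members higher (-0.014 with centring). The remaining lower genes were ZSCAN31 (-0.73), the stress gene DDIT4 (-0.61), the cadherin CDH6 (-0.61), the kinase TNIK (-0.60), the natriuretic peptide receptor NPR3 (-0.59) and the thiopurine-methylating enzyme TPMT (-0.59). Just outside the limit came SPP1 (osteopontin, 8.64 against 9.23, -0.58), the lipid phosphatase PLPP3 (-0.57) and the protease inhibitor SERPINE2 (-0.54). PLPP3 and SERPINE2 had the other sign in CAOV-3.

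Dimmer genes with a large lower value, named after their values were seen, were AKR1C3, a steroid-reducing enzyme (4.61 against 5.98, -1.36), the chromatin factor ARID5B (4.74 against 5.73, -0.99) and the prostaglandin E synthase PTGES (5.29 against 6.04, -0.75). None of them reached the level limit.

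Interferon-stimulated genes showed no such difference in DOV-13. Of 50 measured members 0 were counted, beside 0.176% of all genes counted as higher and 0.092% as lower. At such shares 0 is no result about the members, here or in the lists below. At any size 31 were higher and 19 lower, near the 60.3% higher over all genes. The median was 0.06, against 0.034 over all genes. Centring each array left 26 higher and 24 lower, with a median of 0.017. The antiviral genes IFIT1 (6.01 in both arrays, -0.01), OAS1 (4.73 and 4.77, -0.05) and IFI44L (3.92 and 3.86, 0.06) hardly differed. The antiviral GTPase MX1 read 5.97 against 5.53 (0.44), the ubiquitin-like ISG15 8.27 against 8.07 (0.20) and IFI44 7.64 against 7.28 (0.35). The largest differences among members that reached the level limit were 0.51 for IFI27 and 0.50 for DDX60. Below it, LAMP3 had 0.73, IFI6 0.59 and OAS2 -0.55.

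The same list was much higher in CAOV-3 and OVCAR-3. Its median was 1.562 in CAOV-3, with 41 of 50 members counted as higher, and 1.077 in OVCAR-3, with 30 counted. In SKOV-3 the median was 0.12 with 3 counted. Over all genes 1.73% were counted as higher in CAOV-3, 0.418% in OVCAR-3 and 0.0502% in SKOV-3. The difference between lines was not tested for the list. The limma test of single genes cannot decide it, because its spread includes how the other lines differ from each other in response. For IFI44L, the differences in those lines had an SD of 2.85.

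**Figure D4:**
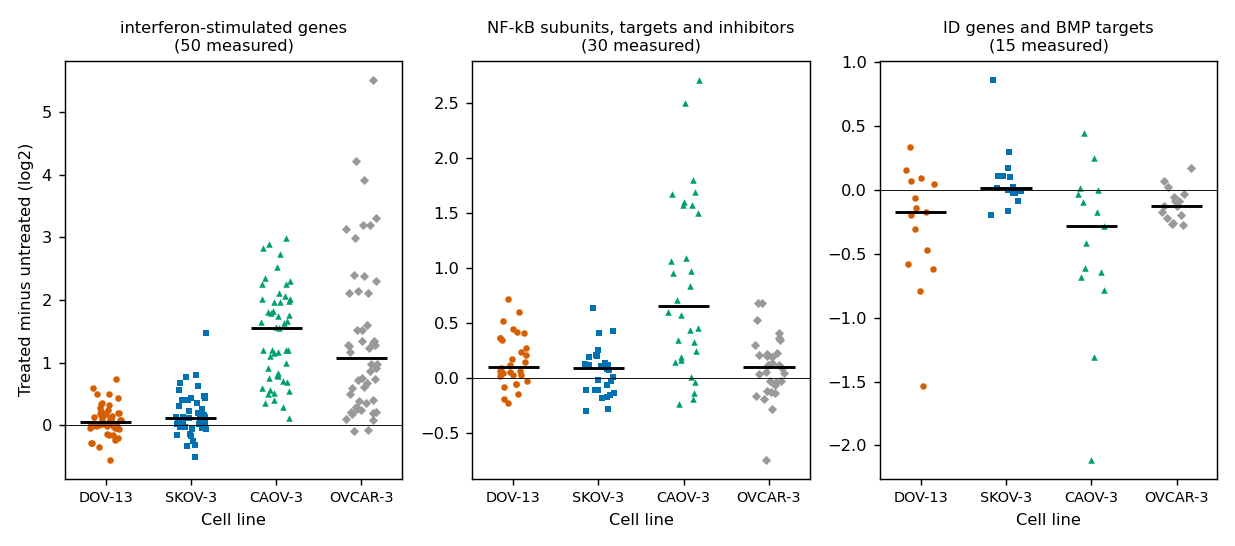
Treated minus untreated difference (y axis, log2) of each measured member of 3 gene lists in the 4 cell lines, with 1 point per gene and a bar at the list median; the y axes differ between panels. In DOV-13 the interferon-stimulated genes centre on 0.06 while CAOV-3 and OVCAR-3 centre on 1.562 and 1.077, and in the ID and BMP panel DOV-13 and CAOV-3 reach the lowest values.

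No sensor or interferon gene was counted, as held for nearly all genes (0.176% counted as higher and 0.092% as lower). TLR3 read 3.82 in the treated and 4.01 in the untreated array, IFIH1 4.75 and 4.82, and RIGI 5.95 and 5.57 (0.38), none at the level limit. The TLR3 adaptor TICAM1 had 0.36, also below it. Among 18 measured genes of double-stranded RNA sensing, 10 were higher and 8 lower, 0 were counted and the median was 0.014, which turned to -0.029 with centring and -0.037 with repeated quantile normalization. The kinase TBK1 (9.58 and 9.57) and the transcription factor IRF3 (difference -0.03) were alike. Of 14 measured interferon genes none reached the level limit, and IFNB1 read 4.67 and 4.68; the largest difference was 0.31, for IFNA17. Among 16 receptor and JAK-STAT genes 12 were higher with a median of 0.093 (0.049 with centring) and 0 counted, and the receptor chain IFNAR1 read 5.26 against 5.49.

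Transcripts of MHC class I presentation genes were slightly higher. Of 18 measured genes 16 were higher and 0 were counted, beside 60.3% higher over all genes. The median was 0.173, beside 0.034 over all genes. In the other lines it was 0.123 in SKOV-3, 0.349 in OVCAR-3 and 0.907 in CAOV-3. TAP1 and PSMB9 are also in the interferon-stimulated list. The immunoproteasome subunit PSMB10 read 7.23 against 6.67 (0.57), the peptide-trimming enzyme ERAP1 8.55 against 8.13 (0.43) and tapasin (TAPBP) 8.83 against 8.50 (0.33). HLA-C had 0.17 and TAP1 -0.02. The list median was 0.13 with centring and 0.142 with repeated quantile normalization.

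Genes of cell death differed little between the arrays. Of 23 death receptors and caspases 17 were higher and 0 counted, beside 60.3% higher over all genes. The median was 0.042, beside 0.034 over all genes, and became -0.002 with centring (11 higher, 12 lower). The receptor TNFRSF10B had 0.03, CASP8 0.21 and the TRAIL ligand TNFSF10 -0.07. Among 10 apoptosis inhibitors 8 were higher (6 with centring), led by CFLAR, which blocks CASP8 (9.01 against 8.58, 0.43). The pro-apoptotic members had a median of 0.123, with BIK at 0.28 and PMAIP1 at -0.01. The p53 targets had a median of -0.018 (0.02 with the mean of all probe sets).

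Proliferation genes differed by small amounts. Of 37 S phase genes 34 were higher (median 0.112, range -0.04 for MCM6 to 0.24 for TK1), and of 36 G2/M genes 31 (median 0.095, range -0.15 for ESPL1 to 0.38 for KIF23), beside 60.3% higher and a median of 0.034 over all genes. In both lists 0 were counted. With each array centred, 30 and 25 were higher, and the medians were 0.068 and 0.051. Hypoxia and glycolysis genes went the other way, with 21 of 26 lower and a median of -0.071, led by the glycolytic regulator PFKFB3 (9.44 against 9.95, -0.50). Drug efflux transporters were lower in 7 of 8, led by ABCC3 (6.03 against 6.56, -0.54). ABCC3 lay below the level limit, was chosen after its value was seen, and had -0.21 in its other probe set. The 4 transporters at the level limit ran from -0.13 to -0.05. Integrated stress response genes had a median of 0.16 with 17 of 23 higher, although DDIT4 was lower. Ribosomal proteins (median -0.005) and reference genes (0.012) were level.

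**Figure D5:**
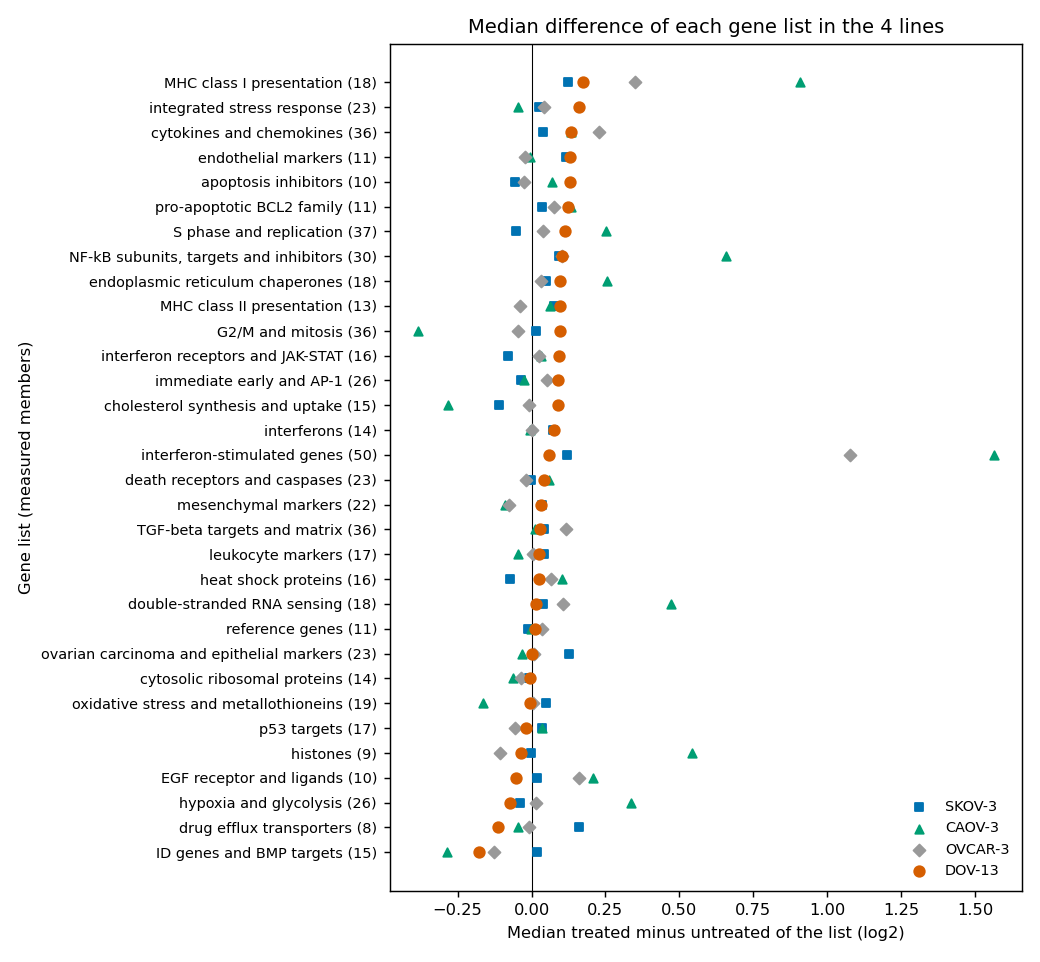
Median treated minus untreated difference (x axis, log2) of each gene list in the 4 cell lines, with the number of measured members in brackets. DOV-13 medians run from -0.176 (ID genes and BMP targets) to 0.173 (MHC class I presentation), while CAOV-3 and OVCAR-3 reach 1.562 and 1.077 for the interferon-stimulated genes.

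The counted DOV-13 genes were compared with those counted by the same rule in the other lines, each against its own untreated array. Of the 21 higher genes, 7 were also counted as higher in CAOV-3 (33.3% of the DOV-13 genes, 3.4% of the 207 in CAOV-3): CXCL1, CXCL2, CXCL8, F3, MAFF, NFKBIA and PLAU. In OVCAR-3 there were 2, CXCL2 and CXCL8, and in SKOV-3 there were 0. Over all genes the shares counted as higher were 1.73% in CAOV-3, 0.418% in OVCAR-3 and 0.0502% in SKOV-3. Of the 11 lower genes, CD24, ID1, ID2 and ID3 were also counted as lower in CAOV-3 (36.4%, and 3.5% of the 115 there), and 0 in the other lines. The shares of all genes counted as lower were 0.961% in CAOV-3, 0.1% in OVCAR-3 and 0.159% in SKOV-3. Beside shares this small, an overlap of 0 is no result about these genes. Another 11 of the 21 higher and 7 of the 11 lower genes stayed under 1.5-fold in all 3 other lines, as did 95.8% of all genes. Across all genes the DOV-13 difference correlated at r = 0.164 with CAOV-3, 0.097 with OVCAR-3 and -0.168 with SKOV-3, where genes are not independent replicates.

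Probe sets gave a check within the array. Of the 19064 probe sets named by 1 gene, 32 were counted as higher, for 29 genes, and 22 as lower, for 16 genes. The higher genes had 6 second probe sets at the level limit, of which 6 had the same sign and 3 passed 1.5-fold. Those of CXCL8 and ETS2 reached the limit in the treated array only, which favours the same sign. Over all 13 other probe sets of the higher genes, 10 had the same sign. For the lower genes, 6 of 6 at the limit had the same sign and 6 passed 1.5-fold, but 5 of these belong to CD24. That of ID2 reached the limit in the untreated array only. Over all 15 other probe sets of the lower genes, 13 had the same sign. Dimmer probe sets, below the limit, in part went against the chosen probe set for IGFBP5 (-0.26, beside 0.52, 0.24 and 0.16 for its others), DMD (-0.26 and -0.17), TPMT (0.05) and NPR3 (0.06, beside -0.14 for another). Over all 1862 genes with 2 probe sets at that level, 66.4% had the same sign. Probe sets of a gene share the RNA of the array and are no replicate of the treatment.

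Technical measures of the DOV-13 pair were close to each other. Medians of the 8 arrays lay between 6.19 and 6.30. The 45 spike-in and hybridisation control probe sets differed by -0.149 to 0.41 between the DOV-13 arrays (median 0.05, SD 0.112). The 3′ minus 5′ signal of ACTB was 0.636 in the treated and 0.585 in the untreated array, and that of GAPDH 0.087 and 0.068. The label names an ovarian cancer line, and 9 of 23 measured ovarian carcinoma and epithelial markers reached the level limit. Over all genes 6113 of 11963 reached it, and neither this count nor the mesenchymal one below is above that share. Untreated DOV-13 had KRT7 at 12.2, KRT18 at 12.3, KRT8 at 10.9, FOLR1 at 8.42 and the lineage factor PAX8 at 8.73. WT1 (5.07), MUC16 (4.05), EPCAM (5.42) and CDH1 (3.59) lay below the median gene. Of 22 measured mesenchymal markers 11 reached the level limit. Among them were vimentin (VIM) at 13.5 and CDH2 at 11.3, while COL3A1 (4.04) and ZEB2 (5.16) did not reach it. Of 17 leukocyte markers only CD4 reached the level limit, with PTPRC at 4.22.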

How the data were processed

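Expression was measured on 8 Affymetrix arrays, 1 for each of 4 lines and 2 conditions. The authors deposited log2 expression values; per the submitters' processing notes, RMA was the tool, and its version is not given in the sources used here. For dim probe sets RMA shrinks differences, and no detection calls or background signals were used here. Of 22277 probe sets, 19064 carry 1 gene symbol in the platform annotation, 1043 several, 2108 none, and 62 are controls. Each of 11963 genes was represented by its probe set of highest mean over the 8 arrays; 4310 genes have more than 1. Groups came from the sample labels. Single-array pairs have no replicate, so genes were counted by size (1.5-fold and 2-fold, higher value at or above the median gene), and so few arrays limit the precision. limma (version 3.58.1, R version 4.3.3) was fitted to the 4 within-line differences with Benjamini-Hochberg adjustment over all genes (2 residual and 4.46 prior degrees of freedom, two-sided), and was checked on simulated data. Nothing says whether arrays came from separate cultures.

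The members, the 32 lists (724 members, 624 measured) and the naming rule were chosen with earlier results of these data known. Named are the 15 largest differences each way at the level limit, up to 4 members of each list, a fixed set of sensor, cytokine and death genes, and all counted genes; others were chosen after their values were seen. Alternatives were other probe set rules, repeated quantile normalization, centring, level filters, a trended robust variance and leaving out each other line. Promoter windows and start sites came from RefSeq (GRCh38.p14), matched by symbol.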

Additional observations from a re-analysis of the deposited data

Results flagged for a closer look

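ETS2 was higher by 0.65 in DOV-13 and lower in CAOV-3 (-0.68), past 1.5-fold in opposite directions. IGFBP5 was higher by 0.86 in DOV-13 and lower by -2.08 in CAOV-3. With 1 pair of arrays a line, neither difference between lines was tested on its own; in the limma comparison of DOV-13 with the mean of the other lines both had an adjusted p of 1.0.

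Outside the probe sets named by 1 gene, 10 probe sets differed at least 1.5-fold in the DOV-13 pair. Of these, 7 were higher (0.62 to 1.22) and 3 lower (-0.64 to -0.6); 1 is named by several genes and 9 by none, so no gene is given for them.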

How the results depend on the processing

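The limma comparisons are paired by line, since they use the difference within each line; with a single array in each group there is no replicate within a line. No counted gene changed sign under another probe set rule or scaling. Of the 32 counted genes, 28 stayed past 1.5-fold with centred arrays, 27 after repeated quantile normalization, 32 with the probe set highest in the pair and 22 with the mean of a gene's probe sets. Without the level filter 28 genes were higher and 25 lower at 1.5-fold, and 3 and 2 at 2-fold, as dim genes such as CXCL5 and AKR1C3 entered. Restricting lists to members at the level limit gave medians of 0.468 for cytokines, 0.207 for MHC class II, 0.062 for pro-apoptotic genes, -0.599 for ID and BMP genes, -0.102 for epithelial, -0.148 for leukocyte and -0.125 for endothelial markers; fewer members remained, and the last 2 rest on 1 gene each. Among the cytokines, CXCL2 and IL32 reached the limit in the treated array only, which favours a higher median. With centring the medians were -0.002 for death receptors, -0.031 for reference genes and -0.048 for ribosomal proteins, and with repeated quantile normalization 0.07 for pro-apoptotic genes, -0.071 for p53 targets and 0.107 for integrated stress genes. limma against zero called 1 gene, CXCL5, with a trended robust variance, and 0 otherwise; leaving out each other line in turn gave 0 genes in both comparisons, with smallest adjusted p from 0.09228 (ID2, without CAOV-3) to 1.0 against zero and from 0.1958 (IFIH1, without SKOV-3) to 0.9998 against the other lines.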
